A study of Mus musculus with 2 samples.

Results

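Retnlg and Mmp8 dominated mature neutrophils are gingival neutrophils in which transcripts of Retnlg (resistin-like gamma) and Mmp8 (neutrophil collagenase) outnumber those of a pair of chemokine genes and of a pair of receptor genes. They were chosen by their own measured counts of unique molecular identifiers (UMIs, each standing for 1 captured transcript). A member had S100a8 and S100a9 at 3% or more of its UMIs and Camp, Ltf and Ngp together under 1%. It had at most 1 UMI in all of Fn1, Vcan, Ccr2, C1qa, C1qb and Cd79a, at most 1 of Siglecf, at most 1 of Rhov and at most 4 of Ifit1, Ifit3, Rsad2 and Isg15. Its Retnlg and Mmp8 UMIs together exceeded those of Cxcl2 and Cxcl3 and those of Csf3r and Cxcr2. The rule found 2668 members among 21268 kept cells of the series, where a kept cell has at least 500 UMIs, at least 250 genes and at most 10% mitochondrial UMIs.

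The cells are CD11b+ cells sorted from the gingiva of mice 12 weeks after bone marrow transplantation (BMT) and after 5 days of ligature-induced periodontitis, in which a thread tied around a tooth inflames the gum. Both groups were transplanted and both were ligated, so no group without transplantation or without ligature enters. 10% Tet2-/- BMT, labelled "10% Tet2 BMT" in the genotype field, received a transplant named for its 10% Tet2-/- share, and 10% Tet2+/+ BMT, labelled "10% WT BMT", is its wild-type counterpart. Tet2 encodes a dioxygenase that oxidises methylated cytosine in DNA. The protocol gives the sort as CD45.2+CD11b+ for 10% Tet2-/- BMT and as CD45+CD11b+ for 10% Tet2+/+ BMT, while both titles read CD45.2+CD11b+. The rest of the transplanted marrow, the recipient strain, the age and the number of mice pooled are not given in the sources used here. There is 1 library per group, so no test was made, and every comparison is between these 2 libraries and not between conditions. All intervals are exact 95% intervals and cover counting error only.

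Neutrophils leave the bone marrow after filling their granules in sequence: primary (azurophil) granules in promyelocytes, secondary (specific) granules in myelocytes and gelatinase granules in the last stages before release. Granule transcripts fade as the cell matures, whereas transcripts for receptors, cytokines and chemokines are made by mature and tissue neutrophils. Retnlg, Mmp8, Ly6g and Cd177 belong to the late marrow and blood stages, and Cxcl2, Ccl3 and Il1b to activated neutrophils in inflamed tissue.

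The regions just before the start of Retnlg and of Mmp8, the genes that define these cells, are shown because their transcripts rank the members. Each sequence is from RefSeq (GRCm38.p6), runs 5′ to 3′ on the strand of the gene and ends at the base before the start of transcription. Retnlg is from chr16:48872358-48872607 and Mmp8 from chr9:7558179-7558428, both on the plus strand.
Retnlg: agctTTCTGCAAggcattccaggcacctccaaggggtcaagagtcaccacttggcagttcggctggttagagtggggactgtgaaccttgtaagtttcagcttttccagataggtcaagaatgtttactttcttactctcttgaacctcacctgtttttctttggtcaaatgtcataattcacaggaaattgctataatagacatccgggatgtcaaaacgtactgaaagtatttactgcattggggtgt
Mmp8: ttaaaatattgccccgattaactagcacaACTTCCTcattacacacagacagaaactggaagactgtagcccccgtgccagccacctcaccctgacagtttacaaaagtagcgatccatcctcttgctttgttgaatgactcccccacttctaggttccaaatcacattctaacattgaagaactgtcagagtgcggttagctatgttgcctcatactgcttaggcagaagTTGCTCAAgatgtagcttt
Capitals mark matches, on either strand, to TTGCNNAA, a word bound by C/EBP factors, which drive granule genes, or to AGGAAGT, a word bound by ETS factors such as PU.1. Windows of 300 bases, 250 before and 50 after the start, held TTGCNNAA at 10.8% and AGGAAGT at 9.351% of all 32851 RefSeq windows. Retnlg has 1 match to TTGCNNAA, on the reverse strand. Mmp8 has 1 match to each word, that to AGGAAGT on the reverse strand. Words for the interferon-stimulated response element and for NF-kB, searched on both strands too, had no match in either window. A match is a run of letters and does not show that a factor binds there.

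The members made up a like share of the mature neutrophils in both libraries. They numbered 1173 of 9596 kept cells (12.2%, 11.6 to 12.9) in 10% Tet2-/- BMT and 1495 of 11672 (12.8%, 12.2 to 13.4) in 10% Tet2+/+ BMT. Among mature neutrophils, which passed every limit but that on the leading pair, members were 41.2% (39.4 to 43.0) of 2847 and 41.1% (39.5 to 42.7) of 3639. The intervals overlap almost entirely. The classes beside them did differ: cells led by Csf3r and Cxcr2, the receptors for G-CSF and for CXC chemokines, were 6.99% (6.08 to 7.99) against 15.4% (14.3 to 16.7). Cells led by Cxcl2 and Cxcl3, chemokines that draw further neutrophils, were 50.2% (48.3 to 52.0) against 40.8% (39.2 to 42.4). The sort gates differ between the libraries in the protocol but not in the titles. The part of any such difference in these shares cannot be told apart from the group.

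**Figure D1:**
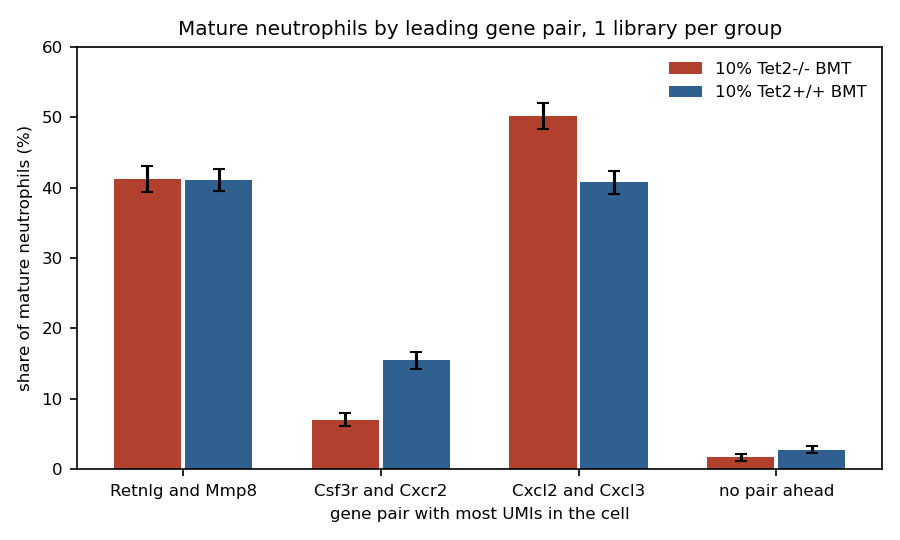
Share of mature neutrophils (%) by the gene pair with most UMIs in the cell, for both libraries; bars are shares and whiskers exact 95% binomial intervals. Retnlg and Mmp8 dominated cells stand at 41.2% and 41.1%, while the Csf3r and Cxcr2 share is lower and the Cxcl2 and Cxcl3 share higher in 10% Tet2-/- BMT.

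The members held 6039058 UMIs in 10% Tet2-/- BMT and 7853446 in 10% Tet2+/+ BMT, with a median of 4991 and 5023 UMIs and 1289 and 1318 genes per cell. In all, 31 barcodes were kept in both libraries, but no barcode was a member in both. The class was named with 5 marker genes: Retnlg (chr16:48872621-48874496), Mmp8 (chr9:7558456-7568485), Stfa1 (chr16:36276951-36285373), S100a6 (chr3:90612882-90624181) and Jaml (chr9:45079183-45108534), all protein-coding and on the plus strand of mm10. Of these 5, 4 were found in most members and Stfa1 was not. Retnlg was detected in all 1173 members of 10% Tet2-/- BMT and in 1493 of 1495 of 10% Tet2+/+ BMT, and Mmp8 in 1079 and 1292. S100a6, a calcium-binding protein, was detected in 1159 and 1463 members, and Jaml, an adhesion molecule used in crossing epithelium, in 712 and 1039. Stfa1, a cysteine protease inhibitor of the stefin A family, was detected in only 58 and 183 members and so does not describe the class.

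Neutrophil transcripts also appeared in cells of other types, so shares were set against B cells (at least 2 Cd79a UMIs, median 6912 and 5705 UMIs) after thinning each cell to 1000 UMIs, which left out 42 and 88 members. Mmp8 then appeared in 75.4% and 68.7% of members against 3.51% and 2.41% of B cells, having been in 92.0% and 86.4% of members and 17.5% and 15.0% of B cells before thinning. Ly6g, the surface antigen that defines mouse neutrophils, appeared in 34.04% and 30.7% of thinned members against 0.501% and 0.689% of B cells (65.6%, 60.5%, 3.26% and 3.92% unthinned). Stfa1 was found in 3.27% and 9.17% of thinned members against 0.501% and 0% of B cells. Mmp9, Csf3r, Cxcr2 and Il1r2 also lay above the B cell share in both libraries, with 40.8% or more of thinned members against 9.64% or less. S100a8 cannot serve in this way, since 62.2% and 73.3% of thinned B cells carried it. Mmp8, Csf3r and Cxcr2 are genes of the rule, so their shares in members are a description. Ly6g, Stfa1, Mmp9 and Il1r2 are outside the rule.

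Markers of other cell types were low in members but not absent, and the rule itself caps Fn1, Vcan, Ccr2, C1qa, C1qb and Cd79a. Monocyte markers summed to 724.5 and 622.4 CPM (a gene's UMIs per 1000000 UMIs summed over the same cells), of which Ly6c2, also made by neutrophils, gave 622.6 and 516.7. Macrophage markers summed to 493.6 and 500.3 CPM with Apoe at 378.4 and 376.9, and B cell markers to 157.8 and 133.7 CPM. None of the 8 monocyte, 8 macrophage or 7 B cell markers was at 0 in either library. Dendritic cell markers summed to 469 and 525 CPM, and 8.44% and 17.5% of members held 5 or more of their UMIs. Epithelium and gland markers summed to 38.3 and 360.2 CPM, with 5 or more UMIs in 3 and 10 members, and 1 and 4 of those 8 genes were at 0. In 10% Tet2+/+ BMT, Bpifb9b in 1 member gave 2318 of the 2829 UMIs. Of the 8 mast cell and basophil markers, 6 were at 0 in 10% Tet2-/- BMT and 3 in 10% Tet2+/+ BMT. Their part in the results below was examined only in settings given at the end. Those left out members rich in gland, primary granule and Ccl5 transcripts, or subtracted free RNA, the profile of barcodes with few UMIs. Beyond that, the part of these markers was not tested.

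Within the members, the gene pair that came next differed between the libraries. Cxcl2 and Cxcl3 were next in 858 of 1173 members of 10% Tet2-/- BMT (73.2%, 70.5 to 75.7) and in 740 of 1495 of 10% Tet2+/+ BMT (49.5%, 46.9 to 52.1). Csf3r and Cxcr2 were next in 23.96% (21.5 to 26.5) and 45.0% (42.4 to 47.5), with ties in the rest. The median member carried 25 Cxcl2 and Cxcl3 UMIs in 10% Tet2-/- BMT and 12 in 10% Tet2+/+ BMT, 11 and 13 Csf3r and Cxcr2 UMIs, and 180 and 139 Retnlg and Mmp8 UMIs. Members of 10% Tet2-/- BMT thus leaned toward the chemokine pair and those of 10% Tet2+/+ BMT were divided between the pairs. These genes served to choose the members, so the values are a description.

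The lead of Retnlg and Mmp8 over the next pair ran from 1 to 1016 UMIs in 10% Tet2-/- BMT (median 137) and from 1 to 857 in 10% Tet2+/+ BMT (median 106), without a gap at the threshold. Just inside it, 92 and 177 members led by 1 to 5 UMIs, with median depths of 2769 and 2326 UMIs and Retnlg at 7605 and 5336 CPM. Just outside, 151 and 278 cells were level or behind by up to 4 UMIs, with median depths of 2825 and 2020 UMIs and Retnlg at 2403 and 2197 CPM. The other members had Retnlg at 38405.0 and 33090.0 CPM. Ly6g, which the rule did not name, stood at 87.0 and 104 CPM just inside, 35.2 and 43.2 just outside and 522 and 537 in the other members. Jaml stood at 277.7 and 420.4 CPM just inside, 153 and 215 just outside and 284 and 359 in the other members. Cells near the threshold were shallower than the other members. Those just inside lay nearer to those just outside in Ly6g and nearer to the other members in Jaml. The drop to just outside was not particular to Ly6g and Jaml. S100a8 went from 78167 and 81898 CPM just inside to 57094 and 52158 just outside, and Csf3r from 1741 and 1802 to 932 and 1325. Cybb ran the other way, from 141 and 104 CPM to 218 and 110. Summed levels give deep cells more weight, and the part of this in the drops was not tested.

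The members varied along their UMI count, in the same way in both libraries. From the quartile with fewest UMIs to that with most, Ly6g stood at 178, 411, 578 and 624 CPM in 10% Tet2-/- BMT and at 156, 307, 504 and 732 CPM in 10% Tet2+/+ BMT. Ngp, a secondary granule protein, went from 550.3 to 2338 CPM and from 545 to 2504 CPM, and Cd177, a surface partner of proteinase 3, from 81.0 to 429 CPM and from 101 to 494 CPM. These late granule and surface genes were highest in the members with most UMIs. Il1b, the inflammatory cytokine interleukin 1 beta, ran the other way, at 14233, 8568, 5817 and 4520 CPM and at 11127, 8315, 5484 and 4006 CPM. Wfdc17, a small secreted antiprotease-like protein of activated myeloid cells, went from 2026 to 582 CPM and from 2471 to 518 CPM. Ifitm1, a membrane protein that hinders virus entry, from 2982 to 1239 CPM and from 2204 to 697 CPM. The 2 libraries showed the same order for each of these 6 genes between the lowest and the highest quartile. Depth is a total that these genes are part of, and its role in the gradients was not tested.

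**Figure D2:**
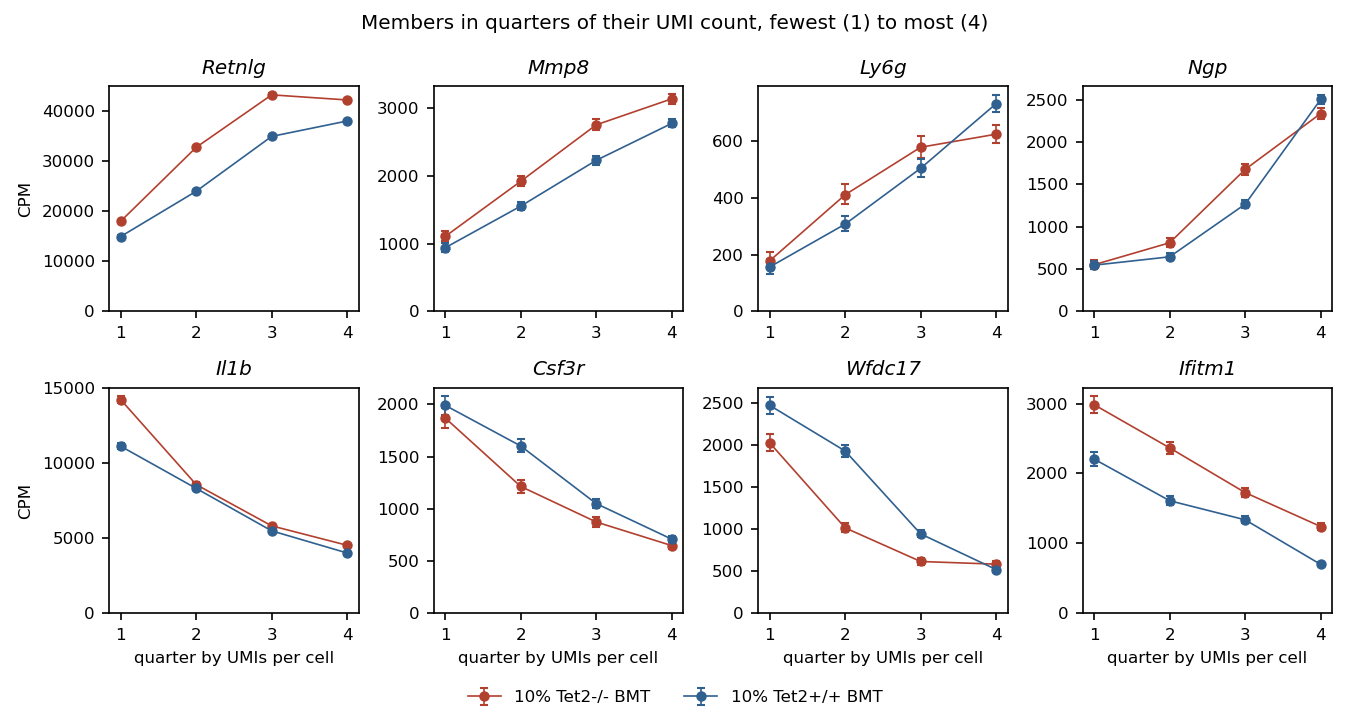
CPM of 8 genes in quartiles of members ordered by UMIs per cell, 1 for fewest and 4 for most, in both libraries; points are summed levels and whiskers exact 95% Poisson intervals. Retnlg, Mmp8, Ly6g and Ngp are higher in the deepest quartile than in the shallowest, and Il1b, Csf3r, Wfdc17 and Ifitm1 lower.

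Against cells led by Csf3r and Cxcr2, the members held more late granule and surface transcripts. Genes were compared where, in each library, they reached 50 CPM in either class and 100 UMIs over both classes. Ratios were taken on log2(CPM + 10), and genes were counted where they passed 2-fold in both libraries. Of 2438 such genes, 60 were higher (2.46%) and 339 lower (13.9%) in members. These counts are descriptions, since the members were chosen on the same cells' counts. Ly6g stood at 505 and 513 CPM in members against 16.0 and 33.4 CPM, and Cd177 at 276 and 311 against 19.7 and 29.3. Ifitm6, a neutrophil-expressed relative of Ifitm1, stood at 1357 and 1237 CPM against 275 and 246. Lcn2, the iron-chelator-binding lipocalin of secondary granules, stood at 4569 and 4399 against 835 and 1106. Members were higher in both libraries for all 4 of these genes, as for Adpgk, Ceacam10, Lyz2 and Itgb2l, the other leading genes outside the rule.

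The gene lists differed by granule stage. Against cells led by Csf3r and Cxcr2, 7 of 12 secondary granule genes and 6 of 11 gelatinase granule and secretory vesicle genes were higher, and 5 of 8 primary granule genes were lower. The lists hold genes of the rule, and without them 6 of 9 secondary granule genes and 5 of 10 gelatinase granule and secretory vesicle genes were higher. The primary granule proteases Elane (211 and 74.0 CPM against 3875 and 977) and Prtn3 (215 and 70.4 CPM against 3113 and 798) led the lower genes, followed by Mpo, Ms4a3, Ctsg and Fcnb of the same early stages and by Clec4n, Igfbp6, Csf1 and Ptma. These early-stage levels rest on few cells in both classes. In the Csf3r and Cxcr2 class, 5 of 199 cells of 10% Tet2-/- BMT held 89.2% of the Elane UMIs and 5 of 562 cells of 10% Tet2+/+ BMT held 98.7%, and among members 5 cells held 98.1% and 88.6%. Survival genes were lower for 4 of 9 and immediate early genes for 6 of 15. Over all 2438 genes, 2.46% were higher and 13.9% lower. Median log2 ratios over all genes were -0.32 and -0.43, with 1.57 and 1.98 for secondary granule genes outside the rule and -3.34 and -2.87 for primary granule genes.

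Against cells led by Cxcl2 and Cxcl3, the members were low in chemokines and cytokines. Of 2217 genes, 69 were higher (3.11%) and 192 lower (8.66%). Of the gene lists, 11 of 13 inflammatory cytokine and chemokine genes were lower and none higher. Without Cxcl2 and Cxcl3, which define the other class, 9 of 11 were lower. Ccl3, a chemokine of activated myeloid cells, stood at 64.9 and 53.1 CPM in members against 1387 and 986, and Ccl4 at 157 and 128 against 2034 and 1112. Il1a, an alarmin, stood at 14.2 and 10.7 CPM against 198 and 177, and Csf1, the macrophage growth factor, at 43.4 and 26.4 against 497 and 291. Highest in members outside the rule's lead genes were Ly6g, Cd177, Adpgk, Ly6c2, Ngp, Itgb2l, Ceacam10 and Lrrk2. Lower in members too were 8 of 14 NF-kB targets and feedback genes, 9 of 16 immediate early genes, 6 of 9 survival genes and 4 of 6 inflammasome genes. Il1b itself stood at 7069 and 6149 CPM against 21971 and 20784.

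Against secondary-granule immature neutrophils, cells with Camp, Ltf and Ngp at 1% or more, the members held the transcripts of later stages. Of 2183 genes, 305 were higher (14%) and 146 lower (6.69%). Jaml stood at 283 and 362 CPM against 21.5 and 21.9, and Il1b at 7069 and 6149 against 1112 and 688. Ccl6, a CC chemokine of myeloid cells, stood at 2906 and 2477 CPM against 263 and 143. Cstdc4, a stefin A gene, stood at 1314 and 1338 CPM against 172 and 132, and all 4 eligible stefin A genes were higher. Lower in members were 10 of 13 secondary granule genes, of which Camp, Ltf and Ngp were set by the rule and the others were 7 of 10, and 7 of 8 cell cycle genes, among the former Chil3 (117 and 80.1 CPM against 4702 and 4172), a chitinase-like lectin, and among the latter Stmn1 (12.9 and 8.02 CPM against 245 and 165), a microtubule regulator of dividing cells. The level of Mmp8 was close in both classes, at 2495 and 2155 CPM in members and 2378 and 2118 in immature cells, and Ly6g was higher in the immature cells, at 732 and 734 CPM. Members thus lay near the immature cells in Mmp8 and Ly6g and far above them in Jaml and Il1b. Mmp8 helped to choose the members, so its closeness is a description and does not place them by stage. Immature cells were also mixed in Mmp8, with 1 UMI per cell at the lower quartile in both libraries and medians of 29 and 27.

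**Figure D3:**
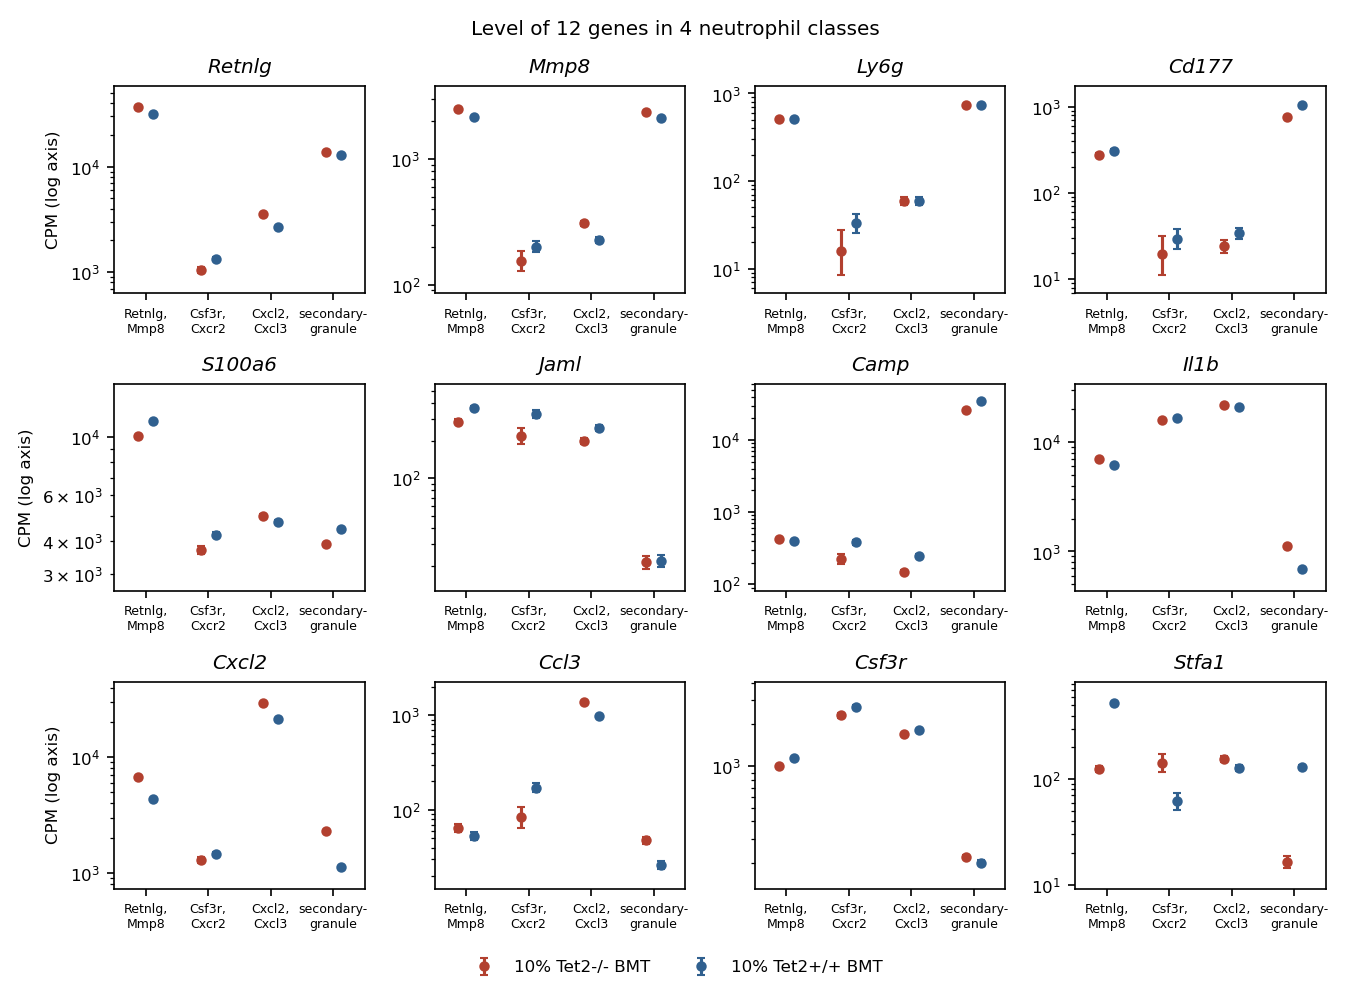
Level of 12 genes in 4 neutrophil classes, in CPM on log axes, for both libraries; points are summed levels and whiskers exact 95% Poisson intervals. Members resemble the secondary-granule class in Mmp8 and Ly6g, lie far below it in Camp, and lie below the 2 other mature classes in Il1b. Retnlg, Mmp8, Camp, Cxcl2 and Csf3r are genes of the rule, so their levels are a description.

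Between the libraries the members differed little. Of 2083 genes with 50 CPM in either library and 100 UMIs over both, 41 were higher in 10% Tet2-/- BMT by 1.5-fold or more on log2(CPM + 10) (1.97%) and 38 were lower (1.82%), and the median log2 ratio was 0.02. Retnlg stood at 37174.5 CPM in 10% Tet2-/- BMT and 31560.0 in 10% Tet2+/+ BMT, a ratio of 1.18 (1.17 to 1.18), and Mmp8 at 2495 and 2155, a ratio of 1.16 (1.13 to 1.18). S100a6 stood at 10066 and 11479 CPM (ratio 0.877, 0.868 to 0.886) and Jaml at 283 and 362 (ratio 0.781, 0.736 to 0.830). None of these 4 passed 1.5-fold. Tet2 itself stood at 78.8 and 61.0 CPM (ratio 1.29, 1.14 to 1.47). Its transcript was not lower in the library labelled 10% Tet2-/- BMT, and a count at the 3′ end does not show whether a part of the gene is deleted.

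**Figure D4:**
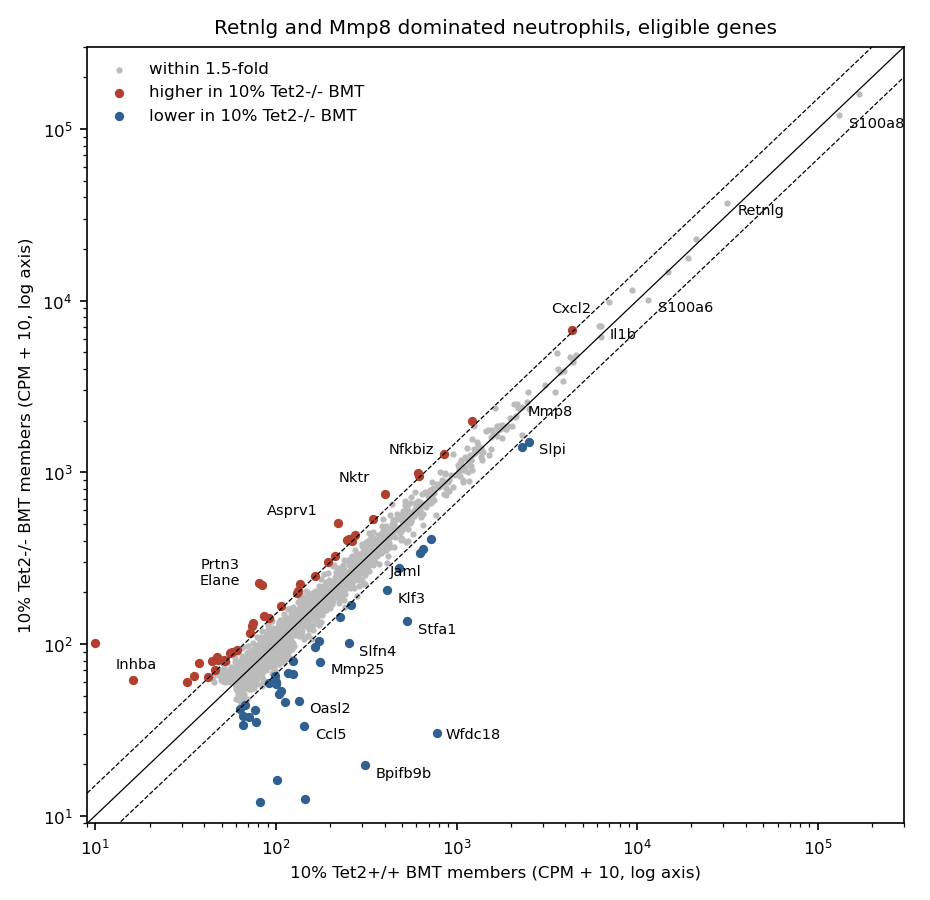
Level of each of the 2083 eligible genes in members of 10% Tet2+/+ BMT (x) and 10% Tet2-/- BMT (y), as CPM + 10 on log axes; the solid line is equality and the dashed lines 1.5-fold. The 41 genes higher and 38 lower lie outside the dashed lines, and Retnlg, Mmp8, S100a6 and Jaml inside them; the unlabelled red point at the left edge is Xist.

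Of the 23 genes of the rule, 12 were eligible and only Cxcl2 passed 1.5-fold between the libraries. S100a8 and S100a9, whose proteins form calprotectin, stood at 119812 and 160568 CPM in 10% Tet2-/- BMT and at 131289 and 169493 CPM in 10% Tet2+/+ BMT. Csf3r stood at 998 against 1140.3 CPM and Cxcr2 at 1163 against 1378 CPM, with ratios of 0.875 (0.847 to 0.904) and 0.844 (0.819 to 0.870). Cxcl3 stood at 65.7 against 72.2 CPM, and the secondary granule genes Camp, Ltf and Ngp at 424, 173 and 1588 against 400, 134 and 1546 CPM. With an estimate of free RNA subtracted, Camp and Ltf passed 1.5-fold too, with log2 ratios of 0.92 and 0.64. These genes of the rule chose or capped the members, so their ratios are a description. Rsad2, which the interferon limit caps, stood at 25.5 against 41.3 CPM and Isg15 at 67.9 against 74.1 CPM, while Ifit1, Ifit3, Siglecf, Rhov, Fn1, Vcan, Ccr2 and Cd79a were each at 13.2 CPM or less and C1qa and C1qb at 16.7 or less in both libraries.

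Asprv1, an aspartic protease also known from skin, had the highest ratio among autosomal genes that did not rest on a few cells. It stood at 497 CPM (3001 UMIs in 520 members) against 210 CPM (1650 UMIs in 422 members), a ratio of 2.37 (2.23 to 2.51). The same gene was higher in 10% Tet2-/- BMT in the other classes, with log2 ratios of 1.07, 1.33 and 1.45 in the Csf3r and Cxcr2, Cxcl2 and Cxcl3, and secondary-granule classes beside 1.20 in members. Nktr, a cyclophilin-related protein, stood at 734 against 390 CPM (ratio 1.88, 1.80 to 1.97), and Tgm2, a transglutaminase, at 122 against 65.1 CPM (ratio 1.87, 1.67 to 2.10). Cyld, a deubiquitinase that restrains NF-kB, stood at 116 against 64.0 CPM (ratio 1.82, 1.62 to 2.04), and Ss18l2 at 73.5 against 37.2 CPM (ratio 1.98, 1.70 to 2.30).

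Some inflammatory genes of members were higher in 10% Tet2-/- BMT. Of 10 eligible inflammatory cytokine and chemokine genes, 4 passed 1.5-fold and were higher and 0 were lower, beside 1.97% and 1.82% of all 2083 genes. The list's median log2 ratio was 0.26 against 0.02 for all genes. Vegfa, a growth factor for vessels, stood at 54.6 against 24.96 CPM (ratio 2.19, 1.83 to 2.63), and Tnf at 70.9 against 38.1 CPM (ratio 1.86, 1.60 to 2.17). Cxcl2, which the rule used, stood at 6722 against 4340 CPM (ratio 1.55, 1.53 to 1.57), and Ptgs2, the inducible cyclooxygenase, at 937 against 609 CPM (ratio 1.54, 1.48 to 1.60). Il1b, at 7069 against 6149 CPM (ratio 1.15, 1.13 to 1.17), did not pass. The higher genes were thus a minority of the list. Without Cxcl2 and Cxcl3, 3 of 8 were higher and the median was 0.26.

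Of 10 NF-kB targets and feedback genes, 2 were higher, 0 lower, and the median was 0.40. Over all 2083 genes, 1.97% were higher and 1.82% lower. Nfkbiz, an inducible nuclear regulator of NF-kB, stood at 981 against 604 CPM (ratio 1.62, 1.56 to 1.69), and Tnfaip3, the feedback inhibitor A20, at 192 against 122 CPM (ratio 1.58, 1.45 to 1.72). Zc3h12a, an RNase that degrades cytokine transcripts, stood at 109 against 73.2 CPM (ratio 1.48) without passing. Of 14 immediate early genes, Nr4a1 (420 against 265 CPM) and Fosb (187 against 121 CPM) were higher, and Dusp1, a phosphatase of MAP kinases, stood at 1643 against 2306 CPM without passing. The median of that list was 0.15.

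Some interferon-stimulated genes were lower in 10% Tet2-/- BMT, in a class whose rule caps 4 such genes. Outside the rule, 4 of 14 eligible genes were lower and 0 higher, beside 1.82% and 1.97% of all 2083 genes, and the median was -0.16. Ifitm1, of the same list, ran the other way at 1850 against 1238 CPM without passing. All 30 genes of the list summed to 8506 against 8781 CPM. Oasl2, an oligoadenylate synthetase-like protein, stood at 36.8 CPM (222 UMIs in 152 members) against 123 CPM (969 UMIs in 527 members), 3.36-fold lower (2.90 to 3.90). After thinning, Oasl2 was in 3.71% of members of 10% Tet2-/- BMT, near the 2.76% of B cells, and in 11.4% of members of 10% Tet2+/+ BMT against 2.58% of B cells (12.96%, 16.0%, 35.2% and 15.7% unthinned). Its share in 10% Tet2-/- BMT was thus close to that of B cells, and whether B cells make Oasl2 themselves was not tested. Slfn4, a Schlafen protein of myeloid cells, stood at 90.9 against 244 CPM, 2.69-fold lower (2.44 to 2.96). Ifi27l2a stood at 349 against 645 CPM and Rtp4 at 48.9 against 81.8 CPM. Oasl2 and Slfn4 were lower in all 3 other classes as well, with log2 ratios from -1.73 to -0.80.

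Apart from the primary granule genes, whose UMIs were in a few members, the granule lists differed little as lists. Of 11 gelatinase granule and secretory vesicle genes, 2 were lower and 0 higher, beside 1.82% and 1.97% of all 2083 genes, and the median was -0.03. Mmp25, a membrane-anchored metalloproteinase of neutrophils, stood at 68.5 against 165 CPM, 2.41-fold lower (2.16 to 2.70), and Slpi, which inhibits elastase, at 1494 against 2498 CPM. Of 11 secondary granule genes, Hp (haptoglobin) was lower, at 1400.4 against 2293 CPM, and the median was 0.05. Mmp25 and Hp were lower in the other 3 classes too, Mmp25 with log2 ratios from -1.45 to -0.90 and Hp from -0.98 to -0.71 over the 4 classes. Lrg1, a secreted glycoprotein of the G-CSF and STAT3 list, was lower at 396 against 714 CPM, and Pim1, a kinase of the same list, higher at 1268 against 842 CPM. Klf3, a repressor, was lower at 195 against 403 CPM, Plk2, a stress-responsive kinase, at 40.7 against 93.7 CPM, and Cyb5r1 at 25 against 67.1 CPM.

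No gene passed 1.5-fold in the lists of adhesion and tissue entry (0 of 10), chemoattractant receptors (0 of 9), neutrophil maturation and egress (0 of 14), NADPH oxidase and antioxidant genes (0 of 12), glycolysis (0 of 13), oxidative phosphorylation (0 of 16), actin and motility (0 of 19), Fc and complement receptors (0 of 9), pattern recognition receptors (0 of 10), inflammasome (0 of 6), heat shock (0 of 6) or survival and apoptosis (0 of 5). Their medians lay between -0.10 and 0.15. Over all 2083 eligible genes 1.97% were higher and 1.82% lower, so counts of 0 in lists this small are close to that background. In the hypoxia list 1 of 5 genes passed (Vegfa), and in eicosanoid synthesis 1 of 4 (Ptgs2). With 1 library per group this does not show that these genes were alike in the 2 conditions.

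Of the 79 genes past 1.5-fold, 11 had 50% or more of their UMIs in 1 library in only 5 cells. Wfdc18, a gland and epithelial secretory transcript, was at 20.4 against 772 CPM, but 5 cells held 98.5% of its UMIs in 10% Tet2+/+ BMT, 1 of them 3646 of 6065. Bpifb9b and Bpifb9a, salivary gland secretory genes, had 2318 of 2376 and 1027 of 1054 UMIs in 1 cell of 10% Tet2+/+ BMT. The primary granule genes Prtn3 (215 against 70.4 CPM), Elane (211 against 74.0), Mpo (66.9 against 27.5) and Ctsg (50.01 against 22.0) had 93.8% or more of their UMIs in 5 members of 10% Tet2-/- BMT. Inhba, a subunit of activin, had 206 of its 313 UMIs in 1 member of 10% Tet2-/- BMT, and Ccl5, a T cell and NK cell chemokine, had 77.9% and 86.6% of its UMIs in 5 members of each library. S100a4 had 49.5% of its UMIs in 5 members of 10% Tet2-/- BMT. Without the 5 highest members per library, 65 of the 79 genes still passed 1.5-fold in the same direction and 14 did not, among them Wfdc18, Bpifb9a, Bpifb9b, Prtn3, Elane, Mpo, Ctsg, Inhba and S100a4. The primary granule list, with 4 of 7 genes higher and a median of 0.91, rests on those few members.

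Stefin A genes, a cluster on chromosome 16 that encodes inhibitors of cysteine proteases, differed from each other in how they were spread. The 90 bases before and 10 after the start of 6 of them are shown because they share 1 word, in capitals. Between the libraries, the ratios of these genes did not all go the same way. Coordinates are those of RefSeq (GRCm38.p6), with Stfa1 at chr16:36277058-36277157, Stfa2l1 at chr16:36156721-36156820 and Cstdc4 at chr16:36184122-36184221 on the plus strand, and Stfa2 at chr16:36408354-36408453, Stfa3 at chr16:36455383-36455482 and Cstdc5 at chr16:36367561-36367660 on the minus strand.
Stfa1: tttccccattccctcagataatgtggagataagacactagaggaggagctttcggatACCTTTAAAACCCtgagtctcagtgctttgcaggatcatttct
Stfa2: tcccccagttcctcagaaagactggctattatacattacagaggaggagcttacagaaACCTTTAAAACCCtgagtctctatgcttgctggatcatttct
Stfa2l1: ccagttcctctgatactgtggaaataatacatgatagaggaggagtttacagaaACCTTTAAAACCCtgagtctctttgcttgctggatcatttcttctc
Stfa3: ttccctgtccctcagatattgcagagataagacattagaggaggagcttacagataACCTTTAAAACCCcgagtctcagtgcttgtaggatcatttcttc
Cstdc4: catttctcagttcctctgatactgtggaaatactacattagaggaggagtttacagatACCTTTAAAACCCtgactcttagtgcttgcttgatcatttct
Cstdc5: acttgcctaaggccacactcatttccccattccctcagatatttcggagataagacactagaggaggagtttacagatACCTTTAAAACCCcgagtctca
The word ACCTTTAAAACCC is the longest that the 6 windows share, was found after looking at them, and was in 9 of 32851 windows of 300 bases as written, all 9 of stefin A or related genes. It is a description of these letters and says nothing of a factor.

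Stfa1 stood at 125 CPM in 10% Tet2-/- BMT and 523 CPM in 10% Tet2+/+ BMT, 4.18-fold lower (3.87 to 4.52). It was detected in 58 of 1173 members (4.95%, 3.78 to 6.34) with up to 76 UMIs and in 183 of 1495 (12.2%, 10.6 to 14.0) with up to 157. Members with at least 10 UMIs, 22 and 92 cells, held 82.4% and 91.5% of the Stfa1 UMIs. Stfa1 was thus undetected in most members, and a small share of them held most of its UMIs. In the other classes it stood at 143 against 61.7 CPM (Csf3r and Cxcr2), 157 against 127 CPM (Cxcl2 and Cxcl3) and 16.4 against 130 CPM (secondary-granule).

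Stfa2l1 was detected in 608 members (51.8%, 48.9 to 54.7) and 666 members (44.5%, 42.0 to 47.1), at 1377 and 1132 CPM, and Cstdc4 in 449 and 566 members, at 1314 and 1338 CPM. Cstdc5 stood at 35.9 against 102 CPM, in 23 and 100 members, with 80 of its 217 UMIs in 1 member of 10% Tet2-/- BMT. Stfa2, at 81.8 against 50.6 CPM, was in 42 and 49 members, and Stfa3 in 16 and 53. Of the 5 eligible genes of the family, Stfa2 was higher and Stfa1 and Cstdc5 were lower. Without the 5 highest members per library the log2 ratio of Stfa2 went from 0.60 to 0.58, which is under 1.5-fold, and that of Cstdc5 from -1.28 to -2.47. Transcripts of Stfa2 and Stfa2l1 share a run of 97 identical bases, so the split of reads between them is uncertain, whereas Stfa1 shares at most 28 bases in a row with Stfa2, Stfa2l1 or Stfa3. No transcripts named Cstdc4 or Cstdc5 were found, so runs shared with them, and the split of reads between them and Stfa1, were not examined.

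The level and the detected share of other stefin A genes were higher among members with Stfa1 in both libraries. Cstdc4 stood at 2340 CPM in members with Stfa1 and 1254 in those without in 10% Tet2-/- BMT, and at 2368 and 1174 in 10% Tet2+/+ BMT. Cstdc4 was in 63.8% of members with Stfa1 and 36.95% of those without in 10% Tet2-/- BMT, and in 56.8% and 35.2% in 10% Tet2+/+ BMT. Cstdc5 was in 4 of 58 members with Stfa1 and 1.70% of those without in 10% Tet2-/- BMT, and in 31 of 183 and 5.26% in 10% Tet2+/+ BMT, so the former rests on 4 cells. Members with Stfa1 were of similar depth to the others, with medians of 5318 and 4988 UMIs in 10% Tet2-/- BMT and 5380 and 4974 in 10% Tet2+/+ BMT. Retnlg, which chose the members, stood at 37862 against 37135 CPM and at 34192 against 31138 CPM.

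**Figure D5:**
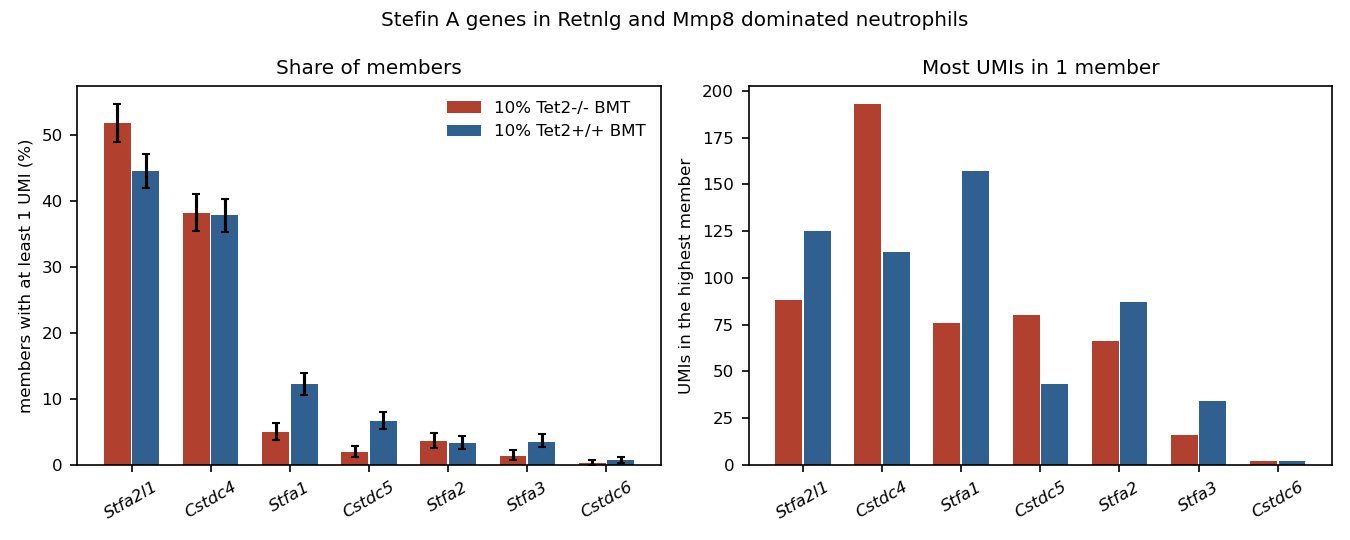
Stefin A genes in members of both libraries: left, the share of members with at least 1 UMI (%) with exact 95% binomial intervals; right, the UMIs of the highest member, a count with no interval. Stfa2l1 and Cstdc4 are in 37.9% to 51.8% of members, and Stfa1 in 4.95% and 12.2%.

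Sex-linked transcripts separated the libraries. Xist, made by the inactive X chromosome of females, stood at 91.4 CPM in members of 10% Tet2-/- BMT and at 0 in 10% Tet2+/+ BMT. Of 1173 members of 10% Tet2-/- BMT, 323 carried Xist alone, 31 a Y-linked transcript (Ddx3y, Eif2s3y, Kdm5d or Uty) alone, 2 both and 817 neither. Of 1495 members of 10% Tet2+/+ BMT, 796 carried a Y-linked transcript and 0 Xist. The Y-linked level in 10% Tet2-/- BMT was 5.00% (3.73 to 6.59) of that in 10% Tet2+/+ BMT in members, 9.00% (5.20 to 14.6) in the Csf3r and Cxcr2 class, 8.14% (6.61 to 9.94) in the Cxcl2 and Cxcl3 class and 6.55% (5.26 to 8.06) in the secondary-granule class. The 31 members of 10% Tet2-/- BMT with a Y-linked transcript alone held Stfa1 at 871 CPM, Slfn4 at 210.2 CPM, Mmp25 at 165 CPM and Asprv1 at 275 CPM, and the 323 with Xist alone held them at 123, 77.7, 70.7 and 491 CPM. The Stfa1 level of those 31 members comes from 174 UMIs in 5 cells, 1 of them with 76. Nktr lay closer, at 695.7 CPM in the 31 and 721.5 in the 323, as did Cyld at 100.1 and 103 CPM. Oasl2 stood at 45.0 and 28.6 CPM. In the 31 members these levels rest on few UMIs: 42 of Slfn4, 33 of Mmp25, 55 of Asprv1 with 27 in 1 cell, 20 of Cyld and 9 of Oasl2. They are too few to separate genes that go with the sex of the cell from genes that do not. Sex-linked transcripts thus go with the group, and their part in every difference between the libraries cannot be told apart from the transplant.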

How the data were processed

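Per the file headers and values, the deposited matrices hold raw counts of UMIs per gene and barcode, empty barcodes included. Per the submitters' processing notes the authors used Cell Ranger 6.1.2 with mm10, while the file header names version 4. Libraries were made with the Single Cell 3' kit, version 3.1, per the labels, and held 9844 and 12161 barcodes with 500 UMIs or more.

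UMIs of members were summed per library and scaled to CPM (per 1000000 UMIs of the members), and log2 ratios used a pseudocount of 10 CPM. The counts were summed because cells of 1 library are not replicates. Exact intervals at 95% are Poisson for levels, conditional binomial for ratios and Clopper-Pearson for shares. No doublet caller was run, so doublets remain. The genes named between libraries are the 12 highest and 12 lowest past 1.5-fold, without ribosomal, mitochondrial, haemoglobin, immunoglobulin, T cell receptor, sex-linked and unnamed models, plus the given markers, Tet2, Il1b, Tnf and the genes of the rule. Between classes they are the 10 highest and 10 lowest by the smaller of the 2 ratios, and from gene lists the 2 to 4 largest ratios at 50 CPM or more. Members and gene lists were chosen with earlier results of these data known. Positions are from GENCODE M21, which held 32158 of 32285 identifiers, and upstream sequences from RefSeq (GRCm38.p6). The ratios were tested on simulated Poisson counts, which hold no spread between cells or between mice. Python 3.11.15, numpy 2.4.6, scipy 1.17.1, pandas 2.3.3, matplotlib 3.10.9, R 4.3.3 and edgeR 4.0.16 (TMM scaling only) were used.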

Additional observations from a re-analysis of the deposited data

Results flagged for a closer look

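The log2 ratio of Ctsg, 0.91 in members, had the opposite sign in the Cxcl2 and Cxcl3 class, at -0.61, where 178 of 425 and 270 of 689 UMIs were in 1 cell of each library. The log2 ratio of Wfdc18, -4.69 in members, was 1.44 in the Csf3r and Cxcr2 class, on 62 and 43 UMIs. The log2 ratio of Stfa1, -1.98 in members, was 1.09 in the Csf3r and Cxcr2 class, where 106 of 116 UMIs of 10% Tet2-/- BMT were in 1 cell. With 1 library per group, the differences between classes were not tested.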

How the results depend on the processing

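Each setting was changed alone. With at most 5% mitochondrial UMIs the members were 13.7% of kept cells in 10% Tet2+/+ BMT. With a lead of at least 3 UMIs they were 12.0% of kept cells and 38.6% of mature neutrophils there. Without the limits on interferon, Siglecf and Rhov UMIs they were 13.7% and 34.1% in 10% Tet2-/- BMT and 14.5% and 34.1% in 10% Tet2+/+ BMT. Without the 8% of kept cells with most UMIs they were 13.3% and 13.9% of kept cells. The share of mature neutrophils stayed close between the libraries in each of these.

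Members thinned to 1000 UMIs gave 53 genes higher and 70 lower, a minimum of 10 CPM gave 63 and 78, and Xist-carrying against Y-carrying members (323 against 796 cells) gave 81 and 64. Y-carrying members of both libraries (31 against 796 cells) gave 277 and 139, with 66.6% of the calls higher against 51.9% in all members. Of the 41 genes higher and 38 lower in all members, 19 and 16 were among them.

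The sign turned for Mpo (-0.059) and Ctsg (-0.0008) as a mean of per-cell CPM, for Elane (-0.15) and Ctsg (-0.085) after thinning, and for Bpifb9a (0.034) in Xist-carrying against Y-carrying members. In Y-carrying members of both libraries it turned for 16 of the 79 genes, among them the named genes Prtn3 (-2.95), Elane (-3.05), Mpo (-2.29), Ctsg (-2.11), Ss18l2 (-0.24), Bpifb9b (2.25), Bpifb9a (0.36) and Stfa1 (0.85). A further 2 settings were chosen after seeing the data, and they turned more signs. Leaving out 6 and 9 members with 20 or more UMIs of gland, primary granule and Ccl5 transcripts gave Prtn3 -0.60, Elane -0.44, Mpo -0.23, Ctsg -0.37, Wfdc18 0.42, Bpifb9b 0.67 and Bpifb9a 0.11. Leaving out the 5 highest members per library of each gene gave Prtn3 -0.60, Elane -0.40, Mpo -0.22, Ctsg -0.31, Wfdc18 0.27, Bpifb9b 0.53 and Bpifb9a 0.11. The cause of the other turns was not tested.

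Over all settings the log2 ratio lay between 0.34 and 1.27 for Asprv1, -1.77 and -1.26 for Oasl2, -1.71 and -0.24 for Slfn4, and -1.26 and -0.01 for Mmp25, with the weakest values for Asprv1, Slfn4 and Mmp25 in Y-carrying members. The list median lay between 0.23 and 0.43 for NF-kB targets and between 0.10 and 0.45 for inflammatory cytokines and chemokines. Free RNA was estimated from B cell, T cell, keratin and haemoglobin transcripts. It came to 2.41% of member UMIs in 10% Tet2-/- BMT and 3.77% in 10% Tet2+/+ BMT. Subtracting it moved the log2 ratio of Camp from 0.08 to 0.92 and that of Ltf from 0.34 to 0.64. No paired analysis was possible because each group has 1 library, and for the same reason no replicate could be left out. Intervals cover counting error only. Differences between mice, any difference between the sort gates and that between the sexes of the cells are outside them.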
